A study of Drosophila melanogaster with 24 samples.

Results

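Transcript levels in heads and thoraces of female Gcn2 mutants were compared with those of wDah control flies after 3 days on a diet without methionine. The comparison takes 6 of the 24 RNA-seq libraries of the study, namely the 3 libraries labelled Gcn2 -M and the 3 labelled wDah -M. Each library held poly(A) RNA from the pooled heads and thoraces of 25 once-mated females. In the Gcn2 mutant the complete open reading frame of Gcn2 was replaced with a white marker gene by homologous recombination, and the line was then backcrossed into white Dahomey (wDah), the control strain, so every cell of the mutant flies carries the deletion. The -M diet is the chemically defined Yaa diet, whose amino acid ratio follows that of yeast, with methionine left out. The study also sequenced both genotypes on Yaa, on the diet without arginine (-R) and on the diet without any amino acid (-All), with 3 libraries per genotype and diet, and these are used here only to show where the difference on -M departs from that on another diet.

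GCN2 is a kinase that is activated by uncharged tRNA when an amino acid runs short. It phosphorylates the translation initiation factor eIF2alpha, which lowers protein synthesis in general and raises translation of the transcription factor ATF4, encoded in flies by crc. ATF4 in turn drives genes for amino acid synthesis and uptake, tRNA charging, one-carbon metabolism and the translation inhibitor 4E-BP (Thor). Methionine serves as a building block and start residue of proteins and is also the source of S-adenosylmethionine, the methyl donor of the cell.

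An estimated 21.0 to 24.8 M reads per Gcn2 -M library and 22.6 to 23.7 M reads per wDah -M library stand behind the normalized counts, and the libraries of a genotype correlated at r = 0.972 to 0.984 over features, with no nonzero value shared by any pair. The labelled tissues were present, since all 14 photoreceptor markers, all 14 flight muscle markers and all 7 neuron markers were in the table, and none of 18 listed symbols of the male accessory gland and testis was. Gcn2 -M replicate 2 and wDah -M replicate 1 stood apart by ovary RNA. The summed normalized count of the 7 ovary genes in the table, of 22 listed, was 1165 in Gcn2 -M replicate 2 and 93.8 to 101 in the other Gcn2 -M libraries, against 1072 in wDah -M replicate 1 and 70.3 to 72.2 in the other wDah -M libraries. Counts over whole lists are therefore also given without both libraries where that moves them by more than 1.5 times.

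Of the 10906 features tested (10335 genes and 571 copies of transposable elements), 2517 (23.1%) differed between Gcn2 mutants and wDah flies on -M at an adjusted p-value under 0.05, and such features are called differentially expressed. Of these, 1329 (12.2% of the features tested) were higher and 1188 (10.9%) were lower in the mutants. The median size of their log2 differences was 0.38, against a median standard error of 0.083 over all features, and 318 of them differed over 2-fold, with 185 higher and 133 lower. Among the features called, 2513 had groups that did not overlap, as had 40.9% of all features (20.7% with the mutants above and 20.2% with the mutants below). Without both libraries rich in ovary RNA 1607 features were called, 908 higher and 699 lower. Scaling each library to the same total shifted the median log2 difference of all features to -0.05, against -0.01 as deposited, and gave 1040 higher and 1487 lower, so that the split between the directions depends on the scaling. Counts of list members on -M below stand beside the 12.2% higher and 10.9% lower of all features.

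Gcn2 itself marked the genotypes. Its normalized count was 111, 146 and 140.1 in Gcn2 mutants, against 665, 687 and 637 in wDah flies. Means were 132 ± 18.8 in the mutants and 663 ± 25 in wDah flies (SD, n = 3 each). No mutant library came near a wDah library, and over all 4 diets the range was 106 to 185 in the mutants and 597 to 701 in wDah flies. The mean in the mutants was 19.9% of that in wDah flies (log2 difference -2.33, SE 0.11, adjusted p = 9.44e-06; exact two-sided permutation test, p = 0.1, the smallest that 3 against 3 libraries allow). In the BDGP6.54 annotation Gcn2 occupies positions 31395660 to 31402013 of chromosome 3R (plus strand), and its end overlaps PNPase (31401560 to 31405452), which encodes a mitochondrial RNA-degrading enzyme. PNPase was not called, with 244, 291 and 287 in Gcn2 mutants, against 330.4, 312 and 331 in wDah flies. Because of the shared stretch, the values of this pair of genes are uncertain.

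Among tested targets of ATF4, 6 of 9 were lower in the mutants and 1 was higher, beside 10.9% lower and 12.2% higher over all features. Of all 19 tested members of a list around ATF4, 8 were lower and 1 was higher, with a median log2 difference of -0.10 against -0.01 over all features. The 8 comprise Gcn2 itself, eIF2beta, a subunit of the factor that GCN2 phosphorylates, and 6 of the 9 targets. The other transcripts upstream of these targets did not pass the test. crc, which encodes ATF4, had 21024, 20909.7 and 20576 in Gcn2 mutants, against 21562, 23117 and 22142 in wDah flies, a log2 difference of -0.10 (95% interval -0.21 to 0.02). The difference of eIF2alpha was -0.09 (-0.20 to 0.02) and that of PEK, the endoplasmic reticulum kinase that acts on the same factor, was 0.07 (-0.05 to 0.20). All 3 intervals include 0 and leave room only for small differences in transcript level. Protein level and phosphorylation were not measured by these libraries.

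AsnS, which encodes asparagine synthetase, had normalized counts of 1290.2, 1665 and 1316 in Gcn2 mutants, against 5091, 5110.0 and 5709 in wDah flies. The groups lay far apart, and the log2 difference was -1.90 (SE 0.10, adjusted p = 1.40e-05). Thor, which encodes the translation inhibitor 4E-BP, had 9245, 8141 and 8726 in Gcn2 mutants, against 19454, 18925 and 18156 in wDah flies. Each mutant library thus held less Thor than each wDah library, with a log2 difference of -1.12 (SE 0.06, adjusted p = 1.40e-05). Nmdmc, a mitochondrial enzyme of the folate cycle, had 2429, 3044 and 2050.1 in Gcn2 mutants, against 7237, 6975 and 8557 in wDah flies (log2 difference -1.61, SE 0.14, adjusted p = 1.36e-04). The next member, aay, encodes phosphoserine phosphatase, the last enzyme of serine synthesis. Its counts were 5876, 7424 and 5328 in Gcn2 mutants, against 15540.0, 16708 and 19942 in wDah flies (log2 difference -1.49, SE 0.13, adjusted p = 1.55e-04). Gadd45 (-0.75), eIF2beta (-0.62) and Sesn (-0.29), which encodes the stress-induced TORC1 inhibitor Sestrin, were also lower. The call of Sesn was lost without Gcn2 -M replicate 1 or 2 or wDah -M replicate 3 (-0.34 to -0.17 over all settings). A single target moved the other way. Shmt, serine hydroxymethyltransferase, had 28391, 27837 and 24164 in Gcn2 mutants, against 8059.6, 9685 and 9789 in wDah flies, and its log2 difference was 1.55 (SE 0.09, adjusted p = 2.51e-05).

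**Figure D1:**
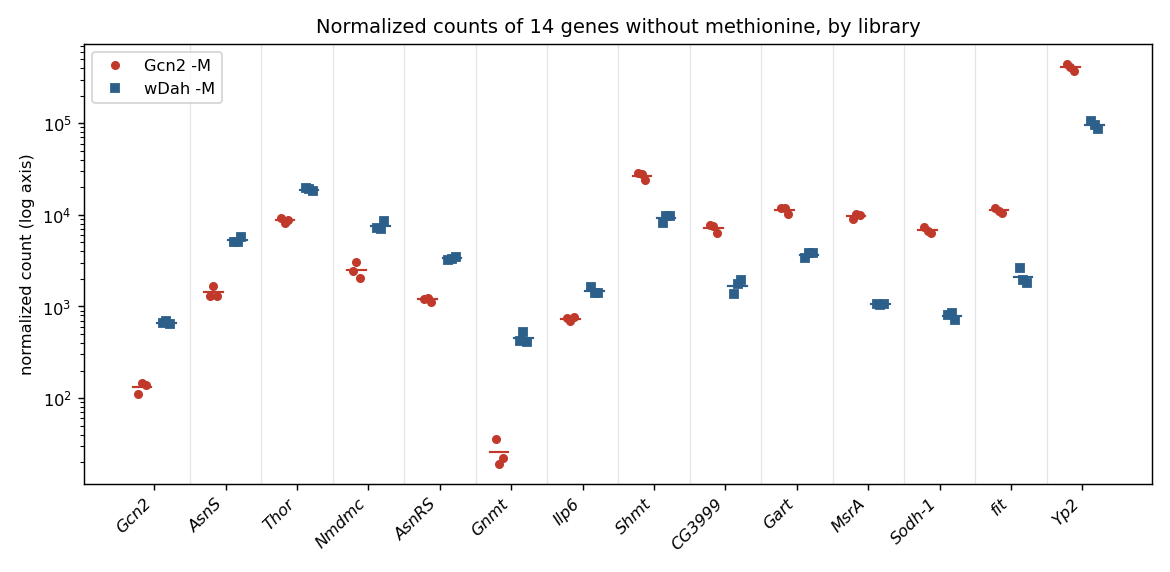
Normalized counts of 14 genes (vertical log axis) in the 3 Gcn2 -M libraries (red circles) and the 3 wDah -M libraries (blue squares), with short lines at the group means. The groups do not overlap for any of the 14 genes, as for 40.9% of all features. For some of the 14 the rule of choice required this. Gcn2, AsnS, Thor, Nmdmc, AsnRS, Gnmt and Ilp6 are lower while Shmt, CG3999, Gart, MsrA, Sodh-1, fit and Yp2 are higher in the mutants.

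Aminoacyl-tRNA synthetases, which load tRNAs with their amino acids, were called in 1 direction. Of 34 tested, 16 were lower in Gcn2 mutants and 0 were higher, with a median log2 difference of -0.20. Among the 20 cytoplasmic enzymes 13 were lower, and among the 14 mitochondrial ones 3. AsnRS stood first, with 1221, 1252 and 1126 in Gcn2 mutants, against 3247, 3315 and 3502 in wDah flies. It is the enzyme for asparagine, the product of AsnS, and its groups were far apart (log2 difference -1.48, SE 0.05, adjusted p = 4.87e-06). LeuRS (-0.81), IleRS (-0.80) and ValRS (-0.55) serve the branched-chain amino acids. MetRS, which charges tRNA with the missing methionine, had 466, 499 and 417 in Gcn2 mutants, against 682, 675 and 715 in wDah flies (log2 difference -0.59, SE 0.07, adjusted p = 9.97e-04). The mitochondrial enzyme for methionine, MetRS-m, was not called (-0.16). The count of 16 fell to 10 without Gcn2 -M replicate 3, without wDah -M replicate 2 or without wDah -M replicate 3.

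Amino acid transporters were called about as often as all features, with 1 of 20 higher and 3 lower and a median log2 difference of 0.00. The transporter that differed most was sbm, of the family of large neutral amino acid transporters. Its counts were 4543, 4147 and 4523 in Gcn2 mutants, against 9794, 9581 and 9500.0 in wDah flies, with all mutant libraries below all wDah libraries (log2 difference -1.13, SE 0.05, adjusted p = 7.39e-06). CG5535 (-0.69, not called without Gcn2 -M replicate 3 or wDah -M replicate 3, -0.83 to -0.52 over all settings) and path (-0.46) were lower as well, and slif, an arginine transporter, was slightly higher (0.32). Members of the TORC1 pathway, the other amino acid sensor of the cell, were called in 3 of 17 cases, near the 23.1% of all features (1 higher and 2 lower, with 0 lower without both libraries rich in ovary RNA and 1 lower without Gcn2 -M replicate 1 or 2 or wDah -M replicate 3, and with 0 higher without wDah -M replicate 3), and Tor itself had a log2 difference of 0.05 (95% interval -0.06 to 0.16).

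The enzymes that handle methionine and its methyl group differed in both directions. Of 20 tested members of the methionine and S-adenosylmethionine cycle and of transsulfuration, 4 were higher and 5 lower. Over all features 12.2% were higher and 10.9% lower. Gnmt, which uses up S-adenosylmethionine by methylating glycine, differed most. Its normalized counts were 36.2, 19.3 and 22.4 in Gcn2 mutants, against 419, 526 and 409 in wDah flies. The lowest wDah library held more than 10 times the count of the highest mutant library, and the log2 difference was -4.11 (SE 0.22, adjusted p = 1.68e-05). Sardh, sarcosine dehydrogenase, which acts on the product of Gnmt, was higher instead, with 597, 679.5 and 502 in Gcn2 mutants, against 181, 249 and 202 in wDah flies (log2 difference 1.49, SE 0.14, adjusted p = 2.45e-04). Cbs, the first enzyme of the transsulfuration of homocysteine to cysteine, was lower (-1.01), as were CG10621 (-0.96) and CG10623 (-0.20), annotated as homocysteine methyltransferases, and Sam-S, S-adenosylmethionine synthetase (-0.24). CG10623 lost its call without Gcn2 -M replicate 3 or any wDah -M library (-0.24 to -0.16 over all settings). On the side of glutathione synthesis Gclm (0.24), Gss1 and Gss2 (both 0.28) were higher. Gss1 and Gss2 lie beside each other, hold the same values and amount to a single measurement.

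MsrA reduces oxidised methionine in proteins and in free form. It had normalized counts of 9104, 10192 and 10071 in Gcn2 mutants, against 1077, 1033 and 1054 in wDah flies. The mean of the mutants was 9.28 times that of wDah flies (9789 ± 596 against 1054 ± 22.2, SD, n = 3 each), which gave the smallest adjusted p of all genes named here (log2 difference 3.21, SE 0.05, adjusted p = 6.29e-08).

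Enzymes that pass one-carbon units between serine, glycine and folate differed in both directions. Of 13 tested members of serine synthesis and folate metabolism, 7 were higher and 4 lower, and the median log2 difference was 0.23. Over all features 12.2% were higher and 10.9% lower. The lower genes include Nmdmc (-1.61) and aay (-1.49), also counted above among the targets of ATF4. CG3999 encodes the glycine decarboxylase of the glycine cleavage system and had 7655, 7550.2 and 6388 in Gcn2 mutants, against 1378, 1744 and 1948 in wDah flies. The mutant libraries were all above the wDah libraries (log2 difference 2.10, SE 0.12, adjusted p = 2.51e-05), and CG6415 (0.68) and ppl (0.36), which encode other parts of the same system, were also higher. So were pug, the trifunctional folate enzyme of the cytosol (1.04), and CG8665, a formyl-tetrahydrofolate dehydrogenase (0.89). CG7560, a methylenetetrahydrofolate reductase, was lower (-0.41). CG7560 lost its call, and the lower genes numbered 2, without Gcn2 -M replicate 2 or 3, or wDah -M replicate 2 or 3, and also without both libraries rich in ovary RNA (-0.50 to -0.33 for CG7560 over all settings).

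Purine synthesis takes up formyl groups from this pool. Among 9 tested genes of purine synthesis 4 were higher and 2 lower. Gart, which carries 3 steps of the pathway, had 11909.8, 11777 and 10190.2 in Gcn2 mutants, against 3350.4, 3841 and 3881 in wDah flies, with no overlap (log2 difference 1.61, SE 0.08, adjusted p = 1.27e-05). AdSL (1.23), Pfas (0.68) and Paics (0.41) were higher, as was ry, the xanthine dehydrogenase that makes urate (1.11). Prat2, 1 of the 2 genes for the first enzyme of the pathway, was lower (-0.70), as was ras, IMP dehydrogenase (-0.30).

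The breakdown of amino acids and the handling of nitrogen were split by route. Of 21 tested enzymes of this list, 7 were higher and 6 lower. The 7 include the glutamine synthetases Gs1 (0.59) and Gs2 (0.18), and the 6 include Gnmt, also counted above. arg, arginase, had 542, 541 and 391 in Gcn2 mutants, against 95.6, 116 and 102 in wDah flies (log2 difference 2.21, SE 0.14, adjusted p = 3.77e-05). It was higher together with Oat, which converts ornithine (1.10), with the transaminases Got2 (1.10) and Got1 (0.66) and with v, tryptophan dioxygenase (1.04). Of the enzymes of phenylalanine and tyrosine breakdown, Hn (-0.26), Hpd (-0.82), hgo (-1.36) and Faa (-0.49) were lower, and Tat, tyrosine aminotransferase, was not called (-0.14, adjusted p = 0.155) except without wDah -M replicate 1, where it was lower. Glutamate dehydrogenase, Gdh, was lower as well (-0.50). CG9547, which stands in the list of beta-oxidation (7 higher and 3 lower of 15, with 0 lower without Gcn2 -M replicate 2, wDah -M replicate 1 or both, and 1 without any other library except Gcn2 -M replicate 1) and is annotated as a glutaryl-CoA dehydrogenase of lysine breakdown, was higher by 1.92.

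The genes with the largest differences held further enzymes and secreted proteins. Sodh-1, a sorbitol dehydrogenase, had 7374, 6633 and 6358 in Gcn2 mutants, against 803, 857 and 710.5 in wDah flies. Had1, a hydroxyacid dehydrogenase on another chromosome, had 7548, 6416 and 7014 in Gcn2 mutants, against 868, 830.1 and 748 in wDah flies. The means of the mutants were 8.59 times that of wDah flies for Sodh-1 and 8.58 times for Had1, with a log2 difference of 3.10 (SE 0.08, adjusted p = 8.02e-07) for Sodh-1 and 3.10 (SE 0.08, adjusted p = 6.95e-07) for Had1. Arc1, a gene of retrotransposon origin whose protein forms capsids in neurons, had 36187, 30275 and 29478 in Gcn2 mutants, against 4223, 5932 and 7459 in wDah flies (log2 difference 2.48, SE 0.18). The 12 genes that were highest by rule also held CG2861 (4.82), CG1494 (4.56), Hsp70Aa (3.80), CG30031 (3.17), dy (3.17), CG3739 (2.75), fit and TotC. Hsp70Aa and the trypsin gene CG30031 have near-identical copies that share reads, so their values are uncertain. Hsp70Aa lost its call without any 1 of the libraries other than wDah -M replicate 1 (2.90 to 5.26 over all settings), dy without Gcn2 -M replicate 1 or 3 (2.08 to 3.87) and CG30031 without wDah -M replicate 3 (2.57 to 4.14).

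On the lower side, Rsph4a, which encodes a radial spoke protein of cilia, rested on few libraries. It had 0, 0.965 and 2.36 in Gcn2 mutants, against 524, 290.2 and 4.98 in wDah flies, so wDah -M replicate 3 lay near the mutants (log2 difference -5.69, SE 1.51, adjusted p = 0.0294). Its call was lost without any 1 of the other 5 libraries (-7.70 to -4.26 over all settings). Obp99b, an odorant-binding protein, had 247, 92.7 and 120.1 in Gcn2 mutants, against 566, 886 and 988 in wDah flies, with a wide spread (log2 difference -2.49, SE 0.35). The rule that chose the 12 genes of each direction required groups without overlap. The other genes of the lower 12 were Gnmt, Gcn2, AsnS, CG13947 (-3.99), CG9451 (-2.25), CG11842 (-2.19), Lsp1beta (-2.18), CG43680 (-1.91), Acf, a chromatin assembly factor (-1.84), and ninaD, a scavenger receptor for carotenoid uptake (-1.76). CG13947, CG11842 and ninaD were, like Gcn2, called lower in the mutants on all 4 diets.

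Transcripts of the fat body, the fly counterpart of liver and adipose tissue, were among the most abundant that differed. The yolk proteins are made in the fat body and the ovary. Yp2 had 443399, 408232 and 375280.0 in Gcn2 mutants, against 105682, 96802 and 85898 in wDah flies (log2 difference 2.09, SE 0.11, adjusted p = 1.48e-05). Yp3 (1.71) and Yp1 (1.63) were also higher, and the 3 genes together took 5.50% to 6.53% of all counts in Gcn2 -M libraries, against 1.69% to 1.93% in wDah -M libraries. In the mutants the share was 6.02% in the library rich in ovary RNA and 6.53% and 5.50% in the others, against 1.93% in the wDah library rich in ovary RNA and 1.81% and 1.69% in the others. The 5 ovary genes tested had log2 differences of -0.57 to 1.44, and none was called, with 1 library rich in ovary RNA in each group. In bulk RNA, more cells of a type and more RNA per cell cannot be told apart. All 3 yolk genes were called under all alternatives. The larval serum proteins, which store amino acids, did not follow the yolk proteins. Lsp1beta had 596, 739 and 339.9 in Gcn2 mutants, against 1847, 3855 and 1985 in wDah flies (log2 difference -2.18, SE 0.34, adjusted p = 0.00275), and Lsp2 had 8698, 7711 and 7409.7 in Gcn2 mutants, against 6862, 9549.9 and 7551 in wDah flies, with a 95% interval of its log2 difference of -0.27 to 0.27.

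Hormones and signals of nutrient state, several of them made by the fat body, differed in part, with 3 of 9 higher and 1 lower. The counts of this paragraph stand beside 12.2% higher and 10.9% lower over all features. fit, a peptide that the fat body releases after protein feeding and that lowers protein appetite, had 11896, 11152 and 10481 in Gcn2 mutants, against 2617, 1943 and 1803 in wDah flies. All mutant libraries were more than 3 times above the wDah libraries (11176 ± 708 against 2121 ± 435, SD, n = 3 each, log2 difference 2.41, SE 0.13, adjusted p = 1.46e-05). Lst (0.62), which encodes limostatin, a hormone that restrains insulin release, and Gbp2 (0.58), a growth-blocking peptide, were higher, and egr, the fly tumour necrosis factor, was lower (-0.25). In the insulin pathway 5 of 13 members were lower and 1 was higher. Ilp6, the insulin-like peptide of the fat body, had 747, 701 and 761 in Gcn2 mutants, against 1648, 1389.7 and 1411 in wDah flies (log2 difference -1.01, SE 0.07, adjusted p = 6.72e-05). The insulin receptor InR was lower too (-0.72), as were the kinases Akt1 (-0.33) and Pdk1 (-0.23). With all 24 libraries in 1 fit InR and Akt1 were not called, and 2 members of the pathway were lower. The lower members numbered 3 without both libraries rich in ovary RNA, without Gcn2 -M replicate 1 or 2, or without wDah -M replicate 1 or 2, and Pdk1 was among those lost each time (-0.28 to -0.17 over all settings). The other member of the pathway that passed, ImpL2, which binds insulin-like peptides, was higher by 0.20. This single higher call was lost without both libraries rich in ovary RNA and without any 1 library other than Gcn2 -M replicate 3. It was also lost with the replicate block, with each library scaled to the same total, without the filter and without the trend. With all 24 libraries in 1 fit it was lost as well, and 0 members were higher under each of these settings. Of 21 genes of lipid synthesis, transport and storage 8 were higher and 1 lower, with 5 higher without wDah -M replicate 3, 2 lower without both libraries rich in ovary RNA and 3 lower with each library scaled to the same total. Among them 4 of 5 carriers of lipid in the blood were higher. They included apolpp, the main lipoprotein (0.86), Apoltp, the lipid transfer particle (0.78), and Mtp, which loads them (0.61). ACC, acetyl-CoA carboxylase, was higher (0.54), whereas Lsd-1, perilipin 1, was lower (-0.66) and the lipase bmm was not called (-0.09).

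Ribosomal protein genes and proteasome genes stood at opposite ends of the lists. Of 86 genes of the cytoplasmic ribosome, 79 were lower in Gcn2 mutants and 0 higher, and the median log2 difference was -0.33. RpL41 had 7463, 7570.3 and 7492 in Gcn2 mutants, against 13423, 11995 and 12193 in wDah flies (log2 difference -0.74, SE 0.05, adjusted p = 6.02e-05), the lowest of the list. The difference of a single gene was mostly small, and 85 of the 86 genes lay below 0, while 1 that was not called lay above 0. Of 32 proteasome subunits, 29 were higher and 0 lower, with a median log2 difference of 0.34 and all 32 above 0. Rpt2, an ATPase of the regulatory particle, had 2329.9, 2177 and 2046 in Gcn2 mutants, against 1483, 1481 and 1472 in wDah flies (log2 difference 0.56, SE 0.05, adjusted p = 2.52e-04). Without both libraries rich in ovary RNA, 59 ribosomal protein genes were still lower and 17 proteasome genes higher. With each library scaled to the same total the counts were 81 lower and 23 higher.

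**Figure D2:**
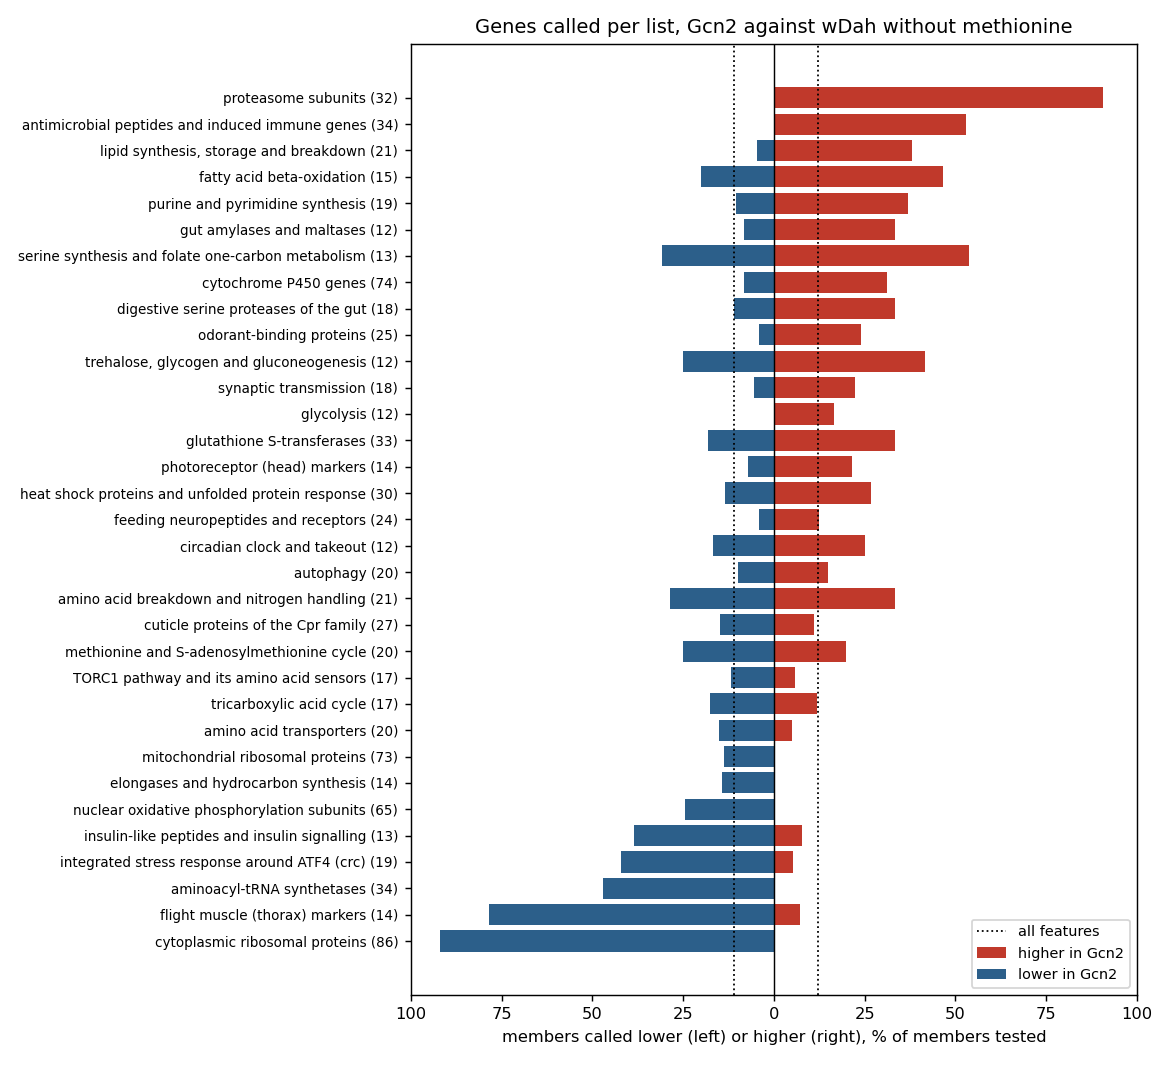
Share of the tested members of each gene list (number in brackets, lists with at least 12 tested members) that were called higher (red, right) or lower (blue, left) in Gcn2 mutants than in wDah flies on -M. Dotted lines give the shares over all features, 12.2% higher and 10.9% lower. Cytoplasmic ribosomal proteins lie farthest to the lower side and proteasome subunits farthest to the higher side.

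Flight muscle markers were lower in the mutants, and this touches the mitochondrial lists because flight muscle is rich in mitochondria. Of 14 markers 11 were lower and 1 higher, with a median log2 difference of -0.28, and 0 were at 0. Their summed normalized count was 377067 to 415633 in Gcn2 -M libraries, against 456565 to 462438 in wDah -M libraries, without overlap. Beside 10.9% lower over all features, 16 of 65 nuclear genes for oxidative phosphorylation were lower and 0 higher (median -0.16). Of 73 mitochondrial ribosomal proteins 10 were lower, near that share, and 0 higher (median -0.14). These counts were not stable. Without both libraries rich in ovary RNA they were 4 for the muscle markers, 1 for oxidative phosphorylation and 5 for mitochondrial ribosomal proteins, and without Gcn2 -M replicate 1 or 2, or wDah -M replicate 1 or 2, oxidative phosphorylation had 4, 3, 5 and 5. With each library scaled to the same total it had 35. Mitochondrial ribosomal proteins had 6 without wDah -M replicate 1. On Yaa the medians were -0.24 for the muscle markers, -0.16 for oxidative phosphorylation and 0.10 for mitochondrial ribosomal proteins. The difference on -M minus that on Yaa was called for 0 muscle markers and 0 genes of oxidative phosphorylation. It was below 0 for 4 mitochondrial ribosomal proteins and above 0 for 0. The part of a changed share of muscle RNA in these lists was not tested. The summed count of 8 gut markers was also lower, at 110680 to 123231 in Gcn2 -M libraries, against 140573 to 148053 in wDah -M libraries, nearly all of it from the mucin Muc68D (-0.35, not called without Gcn2 -M replicate 1, -0.40 to -0.30 over all settings). Of the 7 gut markers tested 2 were lower and 0 higher, and their median was 0.17, with 1 lower without both libraries rich in ovary RNA. Sums of photoreceptor markers (332284 to 379698 in Gcn2 -M libraries, against 333917 to 390466 in wDah -M libraries) and of neuron markers (30824 to 34632, against 29721 to 33102) overlapped.

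Immune genes were called higher only. Of 34 tested peptides and induced immune genes, 18 were higher and 0 lower in Gcn2 mutants, with a median log2 difference of 0.50. Over all features 12.2% were higher and 10.9% lower. Mtk, an antifungal peptide and the highest of the list, had 478, 281 and 292 in Gcn2 mutants, against 98.8, 74.3 and 63.8 in wDah flies (log2 difference 2.12, SE 0.23, adjusted p = 4.71e-04). PGRP-SD, a receptor for bacterial peptidoglycan, had 627, 586 and 436 in Gcn2 mutants, against 238, 221 and 221 in wDah flies (log2 difference 1.26, SE 0.13). PGRP-SB1, another peptidoglycan-binding protein, had 1666, 1012 and 908 in Gcn2 mutants, against 423, 326 and 313 in wDah flies, again without overlap (log2 difference 1.71, SE 0.22). Drs, a target of the Toll pathway, was higher by 0.53, whereas DptA, a main target of the Imd pathway, was not called (0.03). Among 4 Turandot stress peptides tested, 2 were higher, namely TotC with 983, 1799 and 1228 in Gcn2 mutants, against 235, 327 and 238 in wDah flies (log2 difference 2.29, SE 0.22) and TotA (1.37).

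Detoxification families differed by class. Of 33 glutathione S-transferases 11 were higher and 6 lower, beside 12.2% higher and 10.9% lower over all features. All 11 higher genes belonged to the delta class (5 of 9) and the epsilon class (6 of 13), and 5 of the 6 lower genes to other classes, among them se, an omega-class enzyme of eye pigment synthesis (-1.12). The higher genes numbered 5 without Gcn2 -M replicate 1, 6 without wDah -M replicate 3 and 7 without both libraries rich in ovary RNA. Of 74 cytochrome P450 genes 23 were higher and 6 lower, with Cyp6w1 (1.49), Cyp6d2 (1.22) and Cyp4ac1 (1.06) among the higher. Chaperones of the endoplasmic reticulum were higher in 5 of 9 cases, such as Gp93 (0.65) and Pdi (0.49), and 2 were lower, including Xbp1 (-0.22), the transcription factor of the unfolded protein response.

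**Figure D3:**
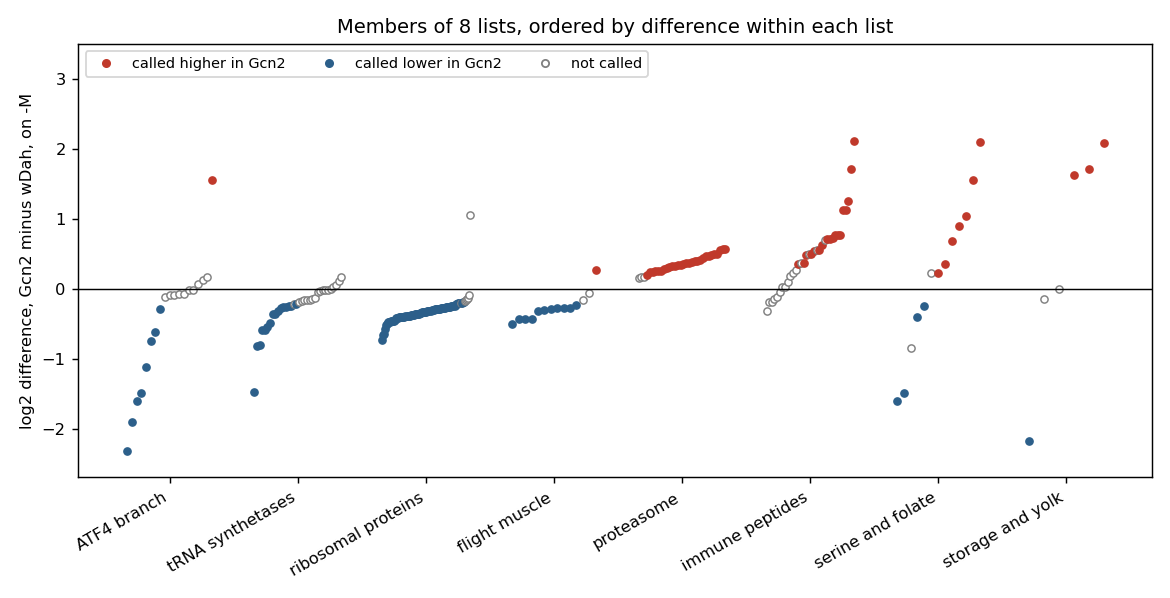
Log2 difference between Gcn2 mutants and wDah flies on -M (vertical axis) of each tested member of 8 lists, ordered within a list; filled points were called higher (red) or lower (blue) and open points were not called. Ribosomal proteins and tRNA synthetases were called lower only, proteasome subunits and immune peptides higher only, and the serine and folate list in both directions.

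Elongases of the oenocytes, the cells that make cuticular hydrocarbons, gave few calls with all libraries. With all 6 libraries 2 of 14 members of this list were lower and 0 higher, although the median log2 difference was -0.87. eloF, an elongase for long-chain hydrocarbons of females, had 38.3, 145 and 28.3 in Gcn2 mutants, against 224, 101 and 164 in wDah flies, so that Gcn2 -M replicate 2 lay within the range of the wDah libraries (log2 difference -1.50, SE 0.56, adjusted p = 0.0947). Without Gcn2 -M replicate 2, 9 members were lower, eloF among them. Without both libraries rich in ovary RNA 8 were lower.

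The nervous system lists were called to different extents, beside 23.1% of all features. Of 24 feeding neuropeptides and receptors 3 were higher, namely Tk (0.39), Dh44 (0.30) and AstA (0.27). The call of AstA was lost without Gcn2 -M replicate 3 or wDah -M replicate 2 or 3 (0.21 to 0.30 over all settings) and that of Dh44 without any 1 Gcn2 -M library or wDah -M replicate 1 (0.17 to 0.34). Only 1 member was higher without both libraries rich in ovary RNA, or without Gcn2 -M replicate 3. Dsk, drosulfakinin, a satiety peptide, was lower (-0.43). Of 18 genes of synaptic transmission 4 were higher and 1 lower, but 0 were called without both libraries rich in ovary RNA. The direction was not stable, with 1 higher and 3 lower without Gcn2 -M replicate 3 and 1 higher and 2 lower with each library scaled to the same total, against 1 to 3 higher and 0 or 1 lower without any 1 of the other libraries. Of 12 clock genes and outputs 3 were higher, with tim (0.67) and cry (0.39) among them, and 2 were lower, with 0 lower without Gcn2 -M replicate 2, wDah -M replicate 2 or both libraries rich in ovary RNA, and 1 lower without wDah -M replicate 1. With each library scaled to the same total 2 were higher and 3 lower.

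The same comparison of the genotypes on the other diets used other libraries. It called 296 features on Yaa (2.69% of those tested, 1.38% higher and 1.31% lower), 5014 on -R (45.8%, 27.7% higher and 18.2% lower) and 117 on -All (1.07%, 0.560% higher and 0.514% lower). Such counts depend on the spread within groups as well as on the size of the differences. Nuclear genes for oxidative phosphorylation, for example, had a median of -0.16 on both Yaa and -M, yet 1 of 65 was lower on Yaa and 16 on -M. Of the features called on -M, 71.7% had the same direction on Yaa, as had 53.8% of those not called on -M. The shares were 57.4% and 49.8% on -R and 68.7% and 55.0% on -All. Features called in the same direction on -M and Yaa numbered 178, which is 7.07% of the calls on -M and 60.1% of the calls on Yaa, and 15 were called in opposite directions. On -R, 801 were called in the same direction as on -M (31.8% of the calls on -M and 16.0% of those on -R) and 529 in the opposite direction, and on -All 81 (3.22% and 69.2%) and 5. A set of 35 features was called in the same direction on all 4 diets, 20 higher and 15 lower. CG1494, which encodes an ABC transporter (chromosome X, 21285301 to 21292458), had 529, 1127 and 1321 in Gcn2 mutants, against 35.2, 31.2 and 50.6 in wDah flies on -M. It was higher on every diet, by 5.72 on Yaa, 5.77 on -R, 4.56 on -M and 5.24 on -All. CG2861 (chromosome X, 4797231 to 4804862) was higher by 4.77, 4.16, 4.82 and 3.64 on the same diets in that order. Both genes lie on another chromosome than Gcn2.

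Whether the difference between the genotypes on -M departs from that on Yaa was tested on the 12 libraries of both diets. The log2 difference on -M minus that on Yaa was called for 761 of 10985 features (6.93%), 463 above 0 (4.21%) and 298 below (2.71%). Many of the largest differences belonged here. MsrA differed between the genotypes by 3.21 on -M and by 0.01 on Yaa, and the difference of both was 3.20 (SE 0.13, adjusted p = 4.23e-07). Gnmt gave -3.25 (SE 0.30, adjusted p = 6.90e-05), AsnS -1.44 (adjusted p = 0.00104), AsnRS -1.25 (adjusted p = 2.84e-05) and Thor -1.04 (adjusted p = 0.00851). On the higher side Sodh-1 gave 2.47, arg 2.01, CG3999 1.95, Shmt 1.80, Yp2 1.57 and fit 1.01. Nmdmc behaved otherwise, with -1.40 on Yaa and -1.61 on -M, and its value of -0.21 was not called (SE 0.17, adjusted p = 0.514). For ribosomal proteins 27 of 86 were below 0 and 0 above (median -0.23), for tRNA synthetases 8 of 34 were below 0 and 0 above (median -0.30), and for proteasome subunits 0 of 32 were called (median -0.03). Proteasome subunits had a median of 0.36 on Yaa, close to the 0.34 on -M, although only 6 of 32 were called there. Leaving out Gcn2 Yaa replicate 2, a library with much ovary RNA, raised the count of 761 to 1262.

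The difference on -M minus that on -All was called for 797 of 10919 features (7.30%, 4.27% above 0 and 3.03% below), and that minus the difference on -R for 4825 of 10967 (44.0%, 18.0% above and 26.0% below). These tests share the -M libraries with the one against Yaa. Against -All, where both genotypes lacked every amino acid, MsrA gave 3.30, Gnmt -3.36, AsnRS -1.58, sbm -1.34 and Thor -1.16, all called. On -R many of these genes differed in the opposite direction. MsrA was lower in the mutants (-2.11), Gnmt was higher by 4.29, and tRNA synthetases were higher in 28 of 34 cases (median 0.66), against 0 of 34 on -M. Ribosomal proteins were higher for 29 and lower for 6 of 86 on -R. Proteasome subunits were higher on both -M and -R, with 25 of 32 on -R. Over all features on -R, 27.7% were higher and 18.2% lower, so the 29 ribosomal proteins lie near the share of all features.

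**Figure D4:**
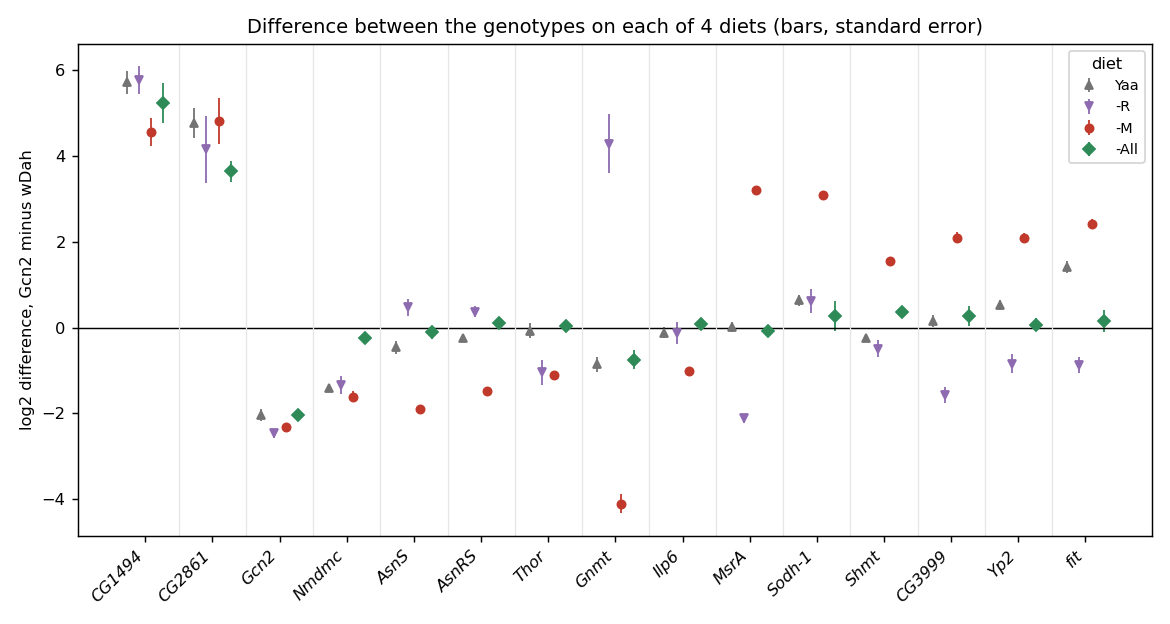
Log2 difference between Gcn2 mutants and wDah flies on each of 4 diets (Yaa grey triangles, -R purple triangles, -M red circles, -All green diamonds; bars, SE) for 15 genes. CG1494, CG2861 and Gcn2 lie on the same side of 0 on all diets, whereas MsrA reaches 3.21 on -M alone and Gnmt lies at -4.11 on -M and 4.29 on -R.

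Genes beside Gcn2 on chromosome 3R were counted separately, since lines made by gene replacement may differ in sequence around the replaced gene. Within 1 Mb of Gcn2, 35 of 117 features were called (29.9%), 16 higher and 19 lower. Within 5 Mb 122 of 450 were called (27.1%), both near the 23.1% of all features. The first neighbours by adjusted p were Gprk2, a G protein-coupled receptor kinase that starts at 31405245 (0.73 on -M and 0.71 on Yaa), CG1544 (1.29 and 0.29), Acf (-1.84 and -1.26) and CanA1, a calcineurin subunit (-0.99 and -0.63). Gprk2 had 2259, 2258 and 2261 in Gcn2 mutants, against 1383, 1355 and 1351 in wDah flies. An effect of the allele and an effect of the surrounding sequence cannot be told apart in these lines. The allele also carries the white marker gene, which the control strain lacks at this place. Loss of Gcn2 and presence of the marker therefore cannot be told apart in any comparison of the genotypes. No feature could be matched to white, so its level is not given.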

How the data were processed

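RNA of heads and thoraces of 25 females per library was sequenced by the authors with 100 bp single-end reads, with 3 biological replicates per genotype and diet. The authors mapped reads to BDGP6 transcripts with kallisto 0.46.2 and normalized gene counts with DESeq2 1.24.0 in R 3.6.3. The deposited values used here are a signal, namely these normalized counts of 24 libraries. The authors' log2 fold changes, p-values, adjusted p-values and FPKM, in this file and in 6 others that compare diets within a genotype, were not used. Whether libraries were stranded is not given in the sources used here, so overlapping and antisense genes are uncertain.

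Since the values are normalized, limma 3.58.1 in R 4.3.3 (with the data.table package, 1.17.8) took the place of a count model. It was fitted with a mean-variance trend to log2(normalized count + 1) of features with a mean of at least 10, two-sided, with Benjamini-Hochberg adjustment over all features and a threshold of 0.05. Differences are on that scale, which understates low genes. The step between low values gave an estimate of reads per library, but only 53.9% to 81.7% of values under 30 in the -M libraries were whole multiples of it (within 0.03), too few to recover counts. Replicates are those the labels number, with no batch given, so that p-values measure only the spread between these libraries. Of the listed symbols 8 were matched by synonym. Scripts were tested on simulated data, and figures were made in Python 3.11.15 (matplotlib 3.10.9). Positions come from the later BDGP6.54 annotation.

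Genes named are Gcn2 and its neighbour, the 12 largest called differences in each direction (mean at least 100, groups not overlapping), defining members and up to 4 called genes per list, up to 4 genes per direction in each comparison of diets, and up to 6 called genes near Gcn2. Further list members were named after their values were seen, to complete short counts. The comparison, the lists and the rule were chosen with earlier results of these data known. Alternatives covered the pseudocount, filter, scaling, samples in the fit, trend, array weights, replicate block, ovary genes as a covariate and each library left out.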

Additional observations from a re-analysis of the deposited data

Results flagged for a closer look

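The genotypes differed to another extent on -M than on each other diet, and these differences of differences were tested with limma on 12 libraries each, with Benjamini-Hochberg adjustment. They were called for 761 features against Yaa, 4825 against -R and 797 against -All. Values below are the log2 difference between Gcn2 mutants and wDah flies on -M minus that on the other diet, and each passed the adjusted threshold of 0.05.

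Against Yaa, the genes above 0 were MsrA (3.20), Sodh-1 (2.47), arg (2.01), CG3999 (1.95), Shmt (1.80), Tsf1, which encodes transferrin (1.62), Hex-C, a hexokinase (1.58), Yp2 (1.57), CG2736 (1.55) and fit (1.01). Those below 0 were Gnmt (-3.25), CG33158 (-1.86), CG42365 (-1.84), AsnS (-1.44), eIF6, a ribosome assembly factor (-1.42), AsnRS (-1.25), Thor (-1.04), CG31694 (-0.93), Ilp6 (-0.89) and Cbs (-0.88). For 4 of those below 0 the difference between the genotypes was larger on Yaa than on -M, and none of them was called lower in the mutants on -M. CG33158 had 1.83 on Yaa and an uncalled -0.03 on -M, eIF6 1.58 and an uncalled 0.16, CG42365 2.28 and 0.44, and CG31694 1.07 and 0.14.

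Against -R, MsrA (5.33), Cyp6w1 (3.29), Amy-d, an amylase (2.46), and CG13315 (1.89) were above 0, and RIOK1, a kinase of ribosome assembly (-5.72), CG42365 (-5.35), CG33158 (-5.01) and CG31694 (-4.11) were below 0, the last 3 with log2 differences on -R of 5.79, 4.98 and 4.24. Against -All, MsrA (3.30), CG9119 (1.69), Tig, an extracellular matrix protein (1.47), and CG2736 (1.39) were above 0, and Gnmt (-3.36), AsnRS (-1.58), sbm (-1.34) and Thor (-1.16) were below 0.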

How the results depend on the processing

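When each of the 6 libraries was left out, the features called on -M numbered 1787 to 2020 (986 to 1102 higher and 792 to 966 lower), the lowest without wDah -M replicate 2. All 24 libraries in a single fit gave 1643 (882 higher and 761 lower), and leaving out both libraries rich in ovary RNA gave 1607 (908 higher and 699 lower). Other settings gave 1897 without the trend to 2596 with array weights. The difference from Yaa was called for 512 to 1262 features with each library left out, the highest without Gcn2 Yaa replicate 2. That from -R ranged from 4102 to 5927 and that from -All from 532 to 725, and that from -All fell to 483 when all 24 libraries entered 1 fit. Of 218 named genes tested 199 were called, 151 of them under all 18 alternatives, and none of the 199 changed sign in any. The calls lost under alternatives numbered 218, and eloF, not called with all 6 libraries, was called under 3. InR, Akt1, egr, tim, Drs, slif and Gclm were among the genes that lost their call only with all 24 libraries in 1 fit. The replicate numbers did not pair the libraries (correlations of deviations -0.16, -0.22 and 0.12 for same-numbered libraries, and no library was closest to its own number). The replicate block gave 2077 calls on -M, of which 1991 were also called without it. The comparisons with Yaa, -R and -All gave 621, 4701 and 702 with the replicate block. Alternatives for the lists and for chromosome 4 were chosen after seeing the data. The cause of these changes was not tested. Precision is limited by 3 libraries per group.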

Other observations

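Genes of the small chromosome 4 were called lower more often than those of the other arms. Of 92 tested, 28 were lower and 2 higher in Gcn2 mutants on -M, beside 10.9% lower and 12.2% higher over all features. Of the genes of chromosome 4, 68.5% lay below 0, with a median log2 difference of -0.12. On the arms X, 2L, 2R, 3L and 3R the medians on -M lay between -0.02 and 0.01, and 48.4% to 53.7% of genes lay below 0. The transcription factors pan, which acts in Wnt signalling (-0.43), and NfI (-0.52) were among the lower genes, and apolpp (0.86) and CG33978 (0.66) were the 2 higher ones. In the other libraries of the study 81.5% of the genes of chromosome 4 lay below 0 on Yaa, 89.1% on -R and 67.0% on -All. Calls on this chromosome were few there, with 0 on Yaa and 1 higher and 0 lower on -All. On -R, 3 were higher and 14 lower (18.5% called, against 45.2% to 48.4% on the arms X, 2L, 2R, 3L and 3R). The 28 lower genes numbered 16 without wDah -M replicate 2, 17 without wDah -M replicate 3, 17 without both libraries rich in ovary RNA and 7 when all 24 libraries entered 1 fit. The median stayed below 0, between -0.15 and -0.09, under all alternatives run. This pattern was noticed in the data and no cause was tested.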
